A study of Homo sapiens with 80 samples.

Results

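The 10 genes described here encode the 5 subunits of the transcription factor NF-κB (NFKB1, NFKB2, RELA, RELB and REL) and 5 genes that hold it in check or shape its feedback (NFKBIA, NFKBIB, NFKBIE, TNFAIP3 and BIRC3). They were chosen by symbol, with earlier results of these data known, and are 10 of the 60663 genes in the count table. The samples were Jurkat T cells, clone E6-1, an established human leukaemic T lymphocyte line. RNA was depleted of ribosomal RNA and sequenced with strand information, so that transcripts without a poly-A tail were covered. In the first experiment cells were spun in a pipette centrifuge at 9 g, for 20 s in hypg020s, for 75 s in hypg075s and for the number of minutes in the name in hypg3, hypg5, hypg7, hypg9, hypg15 and hypg60. The control named Ctrl was kept in the pipette without spinning, at 1 g, over 15 min, and Ctrl60 over 60 min. Per the paper, groups spun for less than 15 min were first kept at 1 g, so that each was incubated for 15 min in all. The count columns of Ctrl60, the control of hypg60, are named Ctrl_plus_HEPES, those of hypg60 carry no such addition, and whether the buffer HEPES was added to one group alone is not given in the sources used here. Each of these 10 groups had 6 libraries. In the second experiment cells were spun at 300 g for 5 min and lysed 1 min (wait1min), 4 min (wait4min) or 15 min (wait15min) later. Other cells were held at 42 °C for 5 min (heat). Both were compared with uncentrifuged cells (Ctrl300), with 4 libraries a group. Per the paper, Ctrl300 was fixed directly, so that time before lysis differed from that of the treated groups as well. The count columns of wait1min read instant and those of wait4min read 1min, and the times given here are those of the sample titles. The 2 experiments differed in vessel, cell density and centrifuge. All libraries come from a single cell line, and no source used here says whether replicates were separate cultures, so p-values measure the spread between these samples, which may be technical.

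In resting cells NF-κB dimers are kept in the cytoplasm by the IκB proteins. Signals from antigen or cytokine receptors activate a kinase complex that marks IκB for destruction, and the freed dimers enter the nucleus. Among the genes they switch on is NFKBIA, which encodes IκBα and puts the brake back, and TNFAIP3, which encodes the ubiquitin-editing enzyme A20. In T cells the pathway is known for coupling the antigen receptor to cytokine production, proliferation and survival.

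The κB consensus decamer, the DNA word that NF-κB dimers bind, was searched on both strands in the 250 bases before the annotated starts, because genes of this group are known to feed back on one another. Promoter sequences from RefSeq on GRCh38.p14 were matched for 8 of the 10 genes, without RELB and NFKBIE. A match was found in 7 of these 8, all but RELA, and in 6.28% of the 27305 genes in the same table. Matches on opposite strands may overlap. The stretches around the matches of 4 genes on which the results turn are shown, with the matched bases in capitals. A match is a description of the letters and not evidence of binding.
REL, chr2:60881512-60881552, plus strand: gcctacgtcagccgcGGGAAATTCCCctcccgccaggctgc
BIRC3, chr11:102317270-102317373, plus strand: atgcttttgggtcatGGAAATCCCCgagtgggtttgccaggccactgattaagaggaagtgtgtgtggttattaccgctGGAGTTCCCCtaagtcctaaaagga
NFKBIA, chr14:35404806-35404845, minus strand: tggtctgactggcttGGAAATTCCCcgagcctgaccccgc
TNFAIP3, chr6:137867177-137867228, plus strand: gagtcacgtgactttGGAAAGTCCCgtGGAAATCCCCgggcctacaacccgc
REL holds 2 overlapping matches, BIRC3 and TNFAIP3 hold 2 separate ones each, and NFKBIA holds 1. These 4 promoters share the motif, while the 4 genes differed in what was measured below.

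The values are read pairs that the authors assigned to the exons of each gene, given here as CPM, the count divided by the library total and brought to a common scale, after TMM scaling over the libraries of an experiment. Depth ran from 22634465 to 41893490 counts per library at 9 g and from 24417717 to 41220541 in the second experiment. Library 75 of hypg15 had no count on chromosomes 4 to 9, X, Y and MT and was left out, which leaves 5 libraries in hypg15. NFKB1, NFKBIE and TNFAIP3 lie on such chromosomes and were at 0 in it. The T cell label held against its markers: 12 of 13 T cell genes averaged at least 10 CPM, while MS4A1 and CD79B of B cells and all 4 monocyte and all 3 erythroid genes averaged under 1 CPM. CD79A was present at a median of 58.6 CPM. Fold changes of all tested genes moved with the GC content of their transcripts, with Spearman's rho between 0.101 (hypg7) and 0.675 (hypg3) in the 9 g groups against their controls, and between -0.686 and -0.658 after 300 g. A fit that removes a smooth GC curve from each library is therefore given beside the results it changes, as the GC-corrected value. The libraries numbered 69 to 80 are those of hypg3 and hypg15, while Ctrl holds 1 to 6, so that library series and exposure cannot be told apart in these 2 groups.

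On a scale that divides counts by exon length (TPM), the inhibitor NFKBIB and the subunit RELA were the most abundant of the 10 genes in unspun cells, and BIRC3 and REL the least. In Ctrl, NFKBIB stood at 54.4 TPM ± 1.97 (SD, n = 6) and RELA at 46.4 ± 1.03. TNFAIP3 (30.5 ± 2.46), NFKBIA (26.9 ± 1.10) and NFKB1 (25.0 ± 1.15) followed, and neighbours within these 3 overlapped between libraries. NFKB2 reached 21.8 ± 0.763 TPM, NFKBIE 13.5 ± 0.873 and RELB 4.37 ± 0.206, each apart from the next. BIRC3 (1.48 ± 0.448) and REL (0.856 ± 0.333) overlapped. The level of REL is understated, since 5702 bases or 43.3% of its exons are shared with the gene model ENSG00000267520 and reads there were not counted. In Ctrl300 the order was the same except that NFKB1 (32.6 ± 1.36 TPM) lay above NFKBIA (25.5 ± 0.140), and each neighbour was apart from the next.

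**Figure D1:**
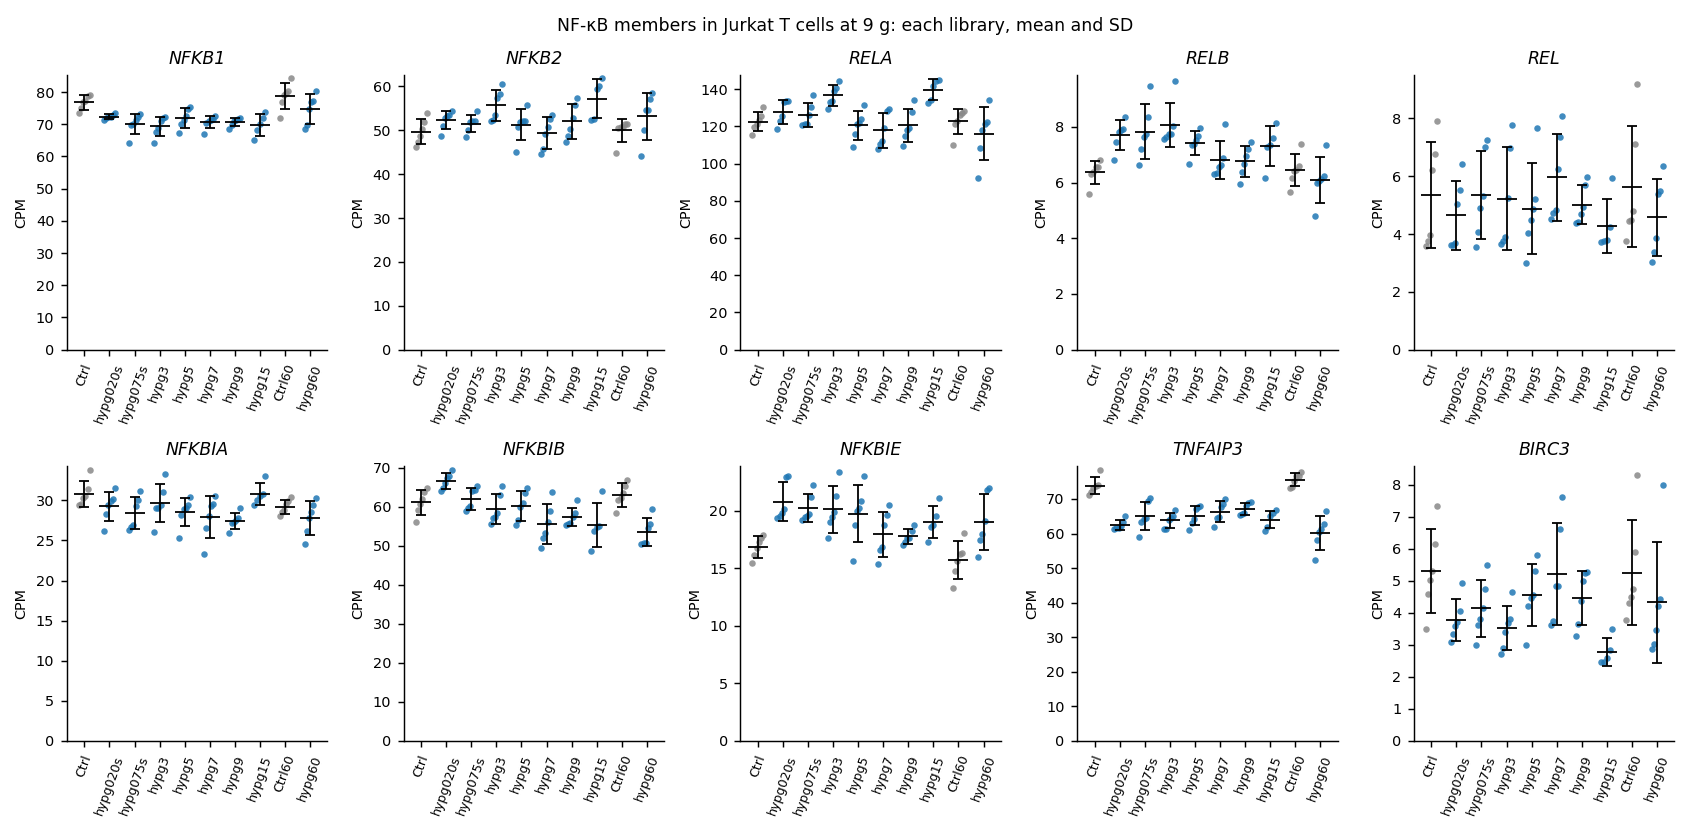
CPM (y axis, from 0) of the 10 genes in each library of the 9 g experiment, by group (x axis). Grey points are control libraries and blue points libraries spun at 9 g, and bars give mean and SD over 6 libraries (5 in hypg15). TNFAIP3 lies below the libraries of its own control in every group at 9 g.

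At 9 g, TNFAIP3, the gene of the deubiquitinating feedback enzyme A20 (ENSG00000118503, GRCh38 chromosome 6, 137867214 to 137883312, plus strand), fell in all 8 comparisons. It was the only member with a call in each of them. The 6 Ctrl libraries held 71.3 to 78.3 CPM with a median of 73.6. After 20 s at 9 g the 6 libraries held 61.4 to 65.2 CPM with a median of 61.9. The groups did not overlap, and the log2 fold change was -0.24 ± 0.03 (SE, adjusted p = 0.000183). At 75 s the libraries spread from 59.0 to 70.2 CPM around a median of 64.4, with a change of -0.17 ± 0.04 (adjusted p = 0.00701). At 5, 7 and 9 min the changes were -0.18 ± 0.04, -0.16 ± 0.04 and -0.13 ± 0.03. At 3 and 15 min the changes were -0.23 ± 0.04 and -0.21 ± 0.04. After 60 min the libraries held 52.2 to 66.6 CPM (median 60.8), below the 73.2 to 77.9 CPM of Ctrl60 (median 76.0), and the change was -0.32 ± 0.06 (adjusted p = 0.000985). In every one of the 8 comparisons the libraries at 9 g lay wholly below their controls. The GC-corrected changes ran from -0.15 to -0.38, each past the threshold. With scaling by total counts the calls at 5, 7 and 9 min were lost, at -0.15 (adjusted p = 0.0539), -0.11 (0.153) and -0.09 (0.0909), and with no filter on low counts the call at 5 min was lost (-0.18, adjusted p = 0.0595). Including library 75, in which TNFAIP3 and NFKB1 are at 0, ended their calls at 15 min (adjusted p = 0.776 and 0.817). The 7 comparisons up to 15 min share the Ctrl libraries and are not independent.

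Among the other feedback genes, NFKBIA and BIRC3 also lay below their controls in all 8 comparisons, with fewer calls. NFKBIA, the gene of IκBα (ENSG00000100906, chromosome 14, 35401513 to 35404749, minus strand), had changes from -0.01 to -0.16 and passed the threshold only at 9 min. There the libraries held 25.9 to 29.0 CPM (median 27.4) against 29.4 to 33.8 CPM in Ctrl (median 30.4), with no overlap and a change of -0.16 ± 0.05 (adjusted p = 0.0218), lost with no filter (adjusted p = 0.0531). Corrected for GC, NFKBIA was lower past the threshold in all 8 comparisons, by -0.15 (7 min, adjusted p = 0.0269) to -0.21 (3 min, adjusted p = 0.000847). By that fit 10.2% of all tested genes were lower at 20 s, 16.4% at 75 s, 26.9% at 3 min, 10.5% at 5 min, 13.0% at 7 min, 16.0% at 9 min, 29.8% at 15 min and 24.1% at 60 min. TNFAIP3 was the other member with a call in all 8 by that fit.

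**Figure D2:**
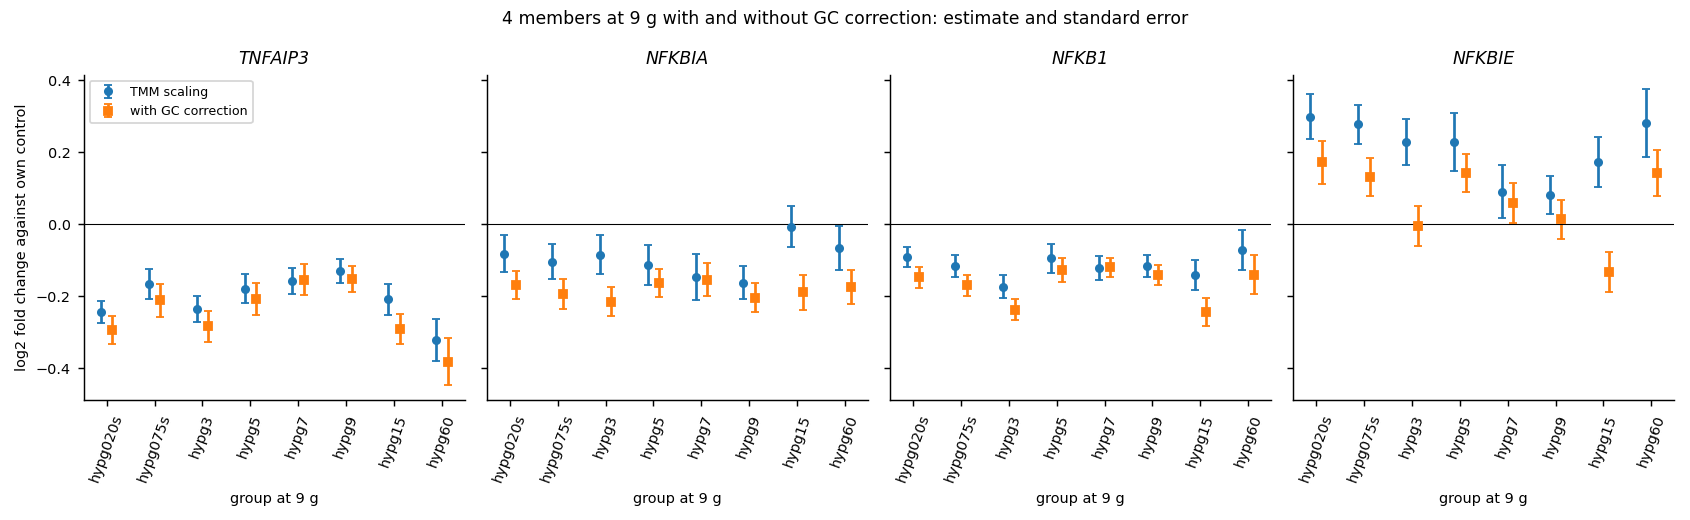
Log2 fold change against the own control (y axis) of TNFAIP3, NFKBIA, NFKB1 and NFKBIE in the 8 groups at 9 g (x axis), with standard errors. Blue circles are the TMM-scaled fit and orange squares the same fit with GC correction, which moves NFKBIA below 0 by at least 0.15 in every group and NFKBIE toward 0 in all groups, and below it at 3 and 15 min.

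Of the other IκB genes, NFKBIE rose in 5 comparisons, and NFKBIB was called higher in 1 and lower in 2, with no rise left after GC correction. NFKBIE, which encodes IκBε (ENSG00000146232, chromosome 6, 44258166 to 44265788, minus strand), was above its control in all 8 comparisons and called in 5. After 20 s its libraries held 19.4 to 23.0 CPM (median 20.0) against 15.4 to 17.9 in Ctrl (median 17.0), with no overlap and a change of 0.30 ± 0.06 (adjusted p = 0.00663). Changes called later were 0.28 ± 0.05 at 75 s, 0.23 ± 0.06 at 3 min, 0.17 ± 0.07 at 15 min and 0.28 ± 0.09 at 60 min. NFKBIE is rich in GC (61.0%), and none of these calls remained with the GC correction, where its change was 0.17 ± 0.06 at 20 s (adjusted p = 0.0646) and turned to -0.13 ± 0.06 at 15 min (adjusted p = 0.0659). The call at 60 min was also lost with no filter (adjusted p = 0.0752), and that at 15 min with total counts (0.0661), no filter (0.214) and all groups in 1 model (0.0651). Leaving out a library likewise ended the call at 15 min for any of the libraries 1, 3 and 5 of Ctrl or 76, 78, 79 and 80 of hypg15, with changes of 0.13 to 0.19.

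NFKBIB, which encodes IκBβ (ENSG00000104825, chromosome 19, 38899700 to 38908893, plus strand), was higher at 20 s by 0.12 ± 0.04 (adjusted p = 0.0429) and lower at 15 min by -0.15 ± 0.06 (adjusted p = 0.0441) and at 60 min by -0.23 ± 0.06 (adjusted p = 0.00656). Its libraries held 64.0 to 69.4 CPM at 20 s (median 66.7) against 56.1 to 64.9 in Ctrl (median 61.4). At 60 min they held 50.5 to 59.4 CPM (median 52.7) against 58.4 to 66.9 in Ctrl60 (median 62.8). Both pairs of groups overlapped at their edges. The call at 20 s was lost with the GC correction (-0.01 ± 0.04), with no filter (adjusted p = 0.124) and with all groups in 1 model (adjusted p = 0.137). In the GC-corrected fit NFKBIB lay below 0 in all 8 comparisons, and the falls grew to -0.45 ± 0.05 at 15 min and -0.35 ± 0.08 at 60 min. The call at 15 min was lost without any of the 6 Ctrl libraries or without library 77, 78, 79 or 80 of hypg15, with changes of -0.11 to -0.15, and with RLE factors (adjusted p = 0.0506) or DESeq2 (adjusted p = 0.0545).

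Among the subunits, in the TMM-scaled fit NFKB1 was called lower, NFKB2, RELA and RELB were called higher in some groups, and REL did not pass the threshold. NFKB1, the gene of p105 and its processed form p50 (ENSG00000109320, chromosome 4, 102501331 to 102617302, plus strand), was below its control in all 8 comparisons and called in 6. Ctrl libraries held 73.5 to 79.2 CPM (median 77.1), and those after 20 s 71.2 to 73.4 (median 72.2), with no overlap and a change of -0.09 ± 0.03 (adjusted p = 0.0355). The largest change was -0.17 ± 0.03 at 3 min (adjusted p = 0.000797), where the libraries held 64.3 to 72.3 CPM (median 69.9). The calls at 5 min (-0.09 ± 0.04, adjusted p = 0.176) and 60 min (-0.07 ± 0.06, adjusted p = 0.353) were missed. GC correction left NFKB1 lower in all 8, by -0.12 to -0.24, and past the threshold in 7, with 60 min at adjusted p = 0.0524. The call at 15 min was lost without library 1, 3 or 4 of Ctrl (-0.12, -0.12 and -0.11, adjusted p = 0.0503, 0.0501 and 0.059), and the calls at 20 s, 7 and 9 min were lost with no filter. The call at 20 s was also lost with all groups in 1 model (adjusted p = 0.135) and that at 7 min with total counts (adjusted p = 0.0576).

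RELB, the partner of p52 in the slower arm of the pathway (ENSG00000104856, chromosome 19, 45001449 to 45038198, plus strand), rose in the shortest exposures. Ctrl held 5.59 to 6.81 CPM (median 6.47), and the groups at 20 s, 75 s and 3 min held 6.81 to 8.37, 6.64 to 9.46 and 7.55 to 9.64 CPM, with medians of 7.86, 7.67 and 7.75. The changes were 0.27 ± 0.07 (adjusted p = 0.0201), 0.32 ± 0.08 (0.00937) and 0.31 ± 0.07 (0.0034), and only the libraries at 3 min lay wholly above Ctrl. RELB has the highest GC content of the 10 genes, at 65.4%, and its changes fell to 0.13, 0.14 and 0.04 with the GC correction, none past the threshold. At 60 min that fit put RELB lower, by -0.23 ± 0.08 (adjusted p = 0.0331).

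NFKB2, which encodes p100 and its processed form p52 (ENSG00000077150, chromosome 10, 102394110 to 102402524, plus strand), and RELA, which encodes p65, the main activating subunit (ENSG00000173039, chromosome 11, 65653597 to 65663090, minus strand), were called higher at 3 and 15 min alone. RELA libraries held 129.5 to 144.5 CPM at 3 min (median 136.3) and 132.8 to 144.8 at 15 min (median 141.9), against 115.2 to 130.2 in Ctrl (median 122.5). The changes of RELA were 0.13 ± 0.03 and 0.18 ± 0.04, and those of NFKB2 0.14 ± 0.05 and 0.20 ± 0.06. Both reversed with the GC correction, RELA to -0.06 and -0.07, not past the threshold at these times. NFKB2 went to -0.11 (adjusted p = 0.0208) and -0.12 (adjusted p = 0.0307). The median gene of that fit stood at -0.07 at both times, with RELA near it and NFKB2 below it. By the same fit RELA was called lower at 75 s (-0.07, adjusted p = 0.0403), 5 min (-0.09, 0.0425), 9 min (-0.08, 0.0248) and 60 min (-0.21, 0.000109). With no filter on low counts both calls at 3 min were lost (adjusted p = 0.0549 for RELA and 0.14 for NFKB2). On the TPM scale at 15 min their log2 ratios were -0.01 and -0.00, where the median gene stood at -0.18, so that relative to it they were higher by 0.17 and 0.18.

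REL, the gene of c-Rel (ENSG00000162924, chromosome 2, 60881521 to 60931612, plus strand), passed the threshold in none of the 8 comparisons. Its libraries scattered within groups more than those of the abundant members, from 3.58 to 7.91 CPM in Ctrl and from 3.77 to 9.21 in Ctrl60, and the standard errors of its log2 fold changes were 0.18 to 0.24. Its log2 fold changes ran from -0.32 to 0.15, and no change of this size was called at this spread. Corrected for GC they ran from -0.03 to 0.25, below 0 in 1 of the 8 comparisons, and none was called.

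BIRC3, which encodes the ubiquitin ligase cIAP2 (ENSG00000023445, chromosome 11, 102317450 to 102339403, plus strand), gave the largest falls at 9 g in the TMM-scaled fit, though not in the GC-corrected fit, where NFKBIB at 15 min (-0.45) fell most. Ctrl libraries held 3.49 to 7.33 CPM (median 5.17). After 15 min the 5 libraries held 2.47 to 3.51 CPM (median 2.59), with a change of -0.93 ± 0.17 (adjusted p = 0.000343). The ranges touched, with the highest hypg15 library just above the lowest Ctrl library. Calls were also made at 20 s (-0.49 ± 0.16, adjusted p = 0.0464) and 3 min (-0.61 ± 0.17, adjusted p = 0.00971). BIRC3 has the lowest GC content of the 10 genes, 34.8%. Corrected for GC, the change at 15 min was -0.36 ± 0.11 (adjusted p = 0.0186) and those at 20 s and 3 min were -0.17 and -0.25, no longer past the threshold. The call at 20 s was also lost with scaling by total counts (adjusted p = 0.0701) and with all groups in 1 model (-0.48, adjusted p = 0.122).

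Counted over the 10 genes, between 1 and 7 were called in each comparison at 9 g. After 20 s, 3 members were higher and 3 lower, where 6.66% of all tested genes were higher and 8.58% lower. After 75 s it was 2 and 2 (16.8% and 14.4% of all genes), and after 3 min 4 and 3 (16.9% and 24.4%). After 5, 7 and 9 min the calls numbered 1, 2 and 3, all lower. In those groups 4.33%, 6.64% and 11.3% of all genes were higher and 1.69%, 6.19% and 8.34% lower. After 15 min 3 were higher and 4 lower (25.4% and 27.9%), and after 60 min 1 was higher and 2 lower (17.1% and 13.0%). The median log2 fold change of the 10 members lay between -0.08 and 0.03 in the 8 comparisons, and that of all tested genes between -0.02 and 0.02. Between Ctrl60 and Ctrl no member was called, none had an unadjusted p under 0.05 by edgeR or by DESeq2, and 0.0124% of all genes were called. By the GC-corrected fit between 3 and 6 members were called at 9 g, all of them lower. That fit called more genes lower than higher throughout, with 4.02%, 9.29%, 6.15%, 5.01%, 8.58%, 12.2%, 13.2% and 17.3% of all genes higher from 20 s to 60 min, against the lower shares given above.

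**Figure D3:**
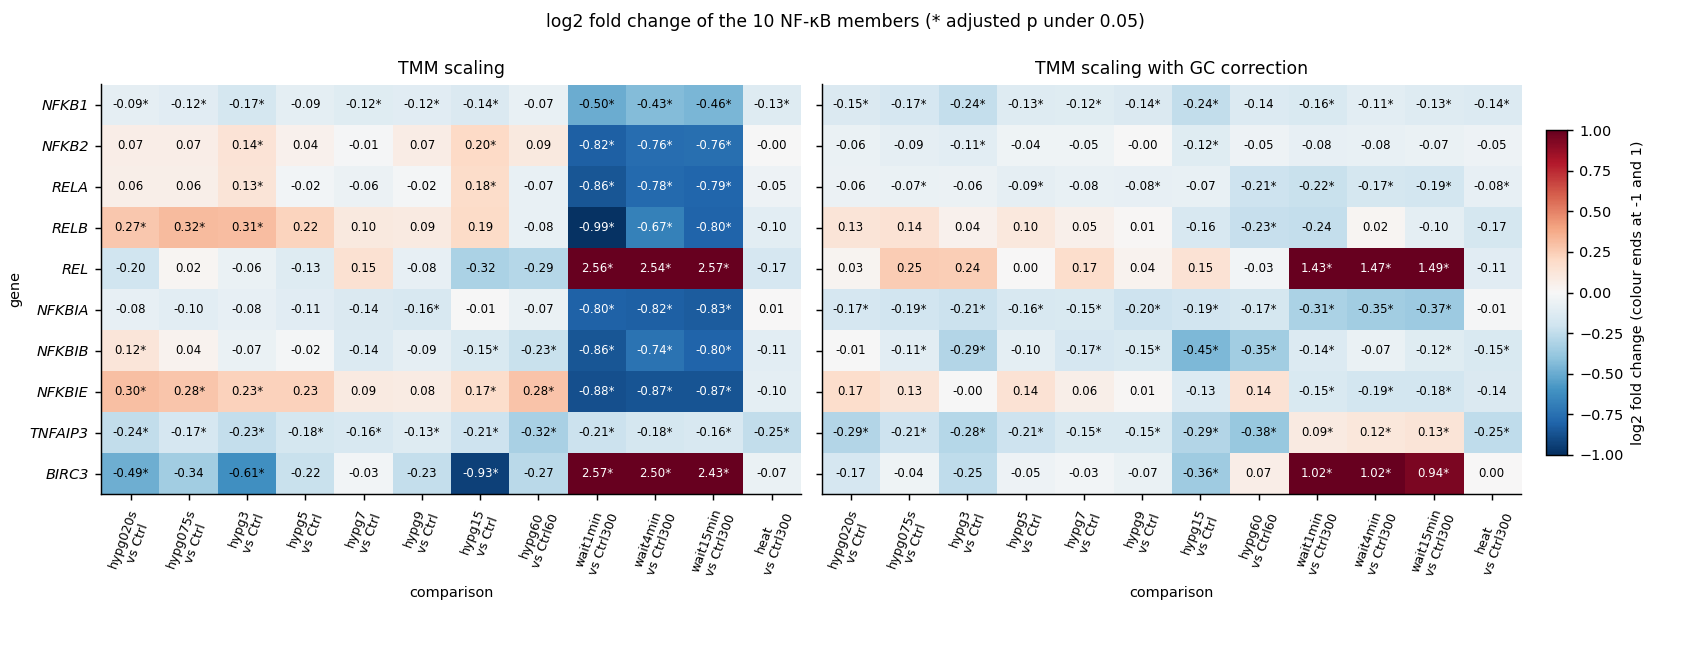
Log2 fold change of the 10 genes (rows) in the 12 comparisons with an own control (columns), for the TMM-scaled fit (left) and with GC correction (right). Red is higher and blue lower than control, colours end at -1 and 1, and an asterisk marks an adjusted p under 0.05. TNFAIP3 is lower and marked in all 8 columns at 9 g in both panels, and its values after 300 g change sign between the panels.

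After 300 g for 5 min, all 10 genes differed from Ctrl300 at each waiting time, and they split by gene. REL and BIRC3 were higher and the other 8 lower by the TMM-scaled fit. REL libraries held 4.55, 5.84, 5.93 and 6.34 CPM in Ctrl300, and 32.0, 32.9, 33.3 and 34.3 CPM in wait1min. The log2 fold change was 2.56 ± 0.08 (adjusted p = 8.21e-15), a 5.88-fold higher value, with 2.54 and 2.57 at the later times. BIRC3 libraries held 4.64, 5.16, 5.42 and 6.45 CPM in Ctrl300, and 28.5, 30.6, 33.0 and 36.3 in wait1min, a change of 2.57 ± 0.10 (adjusted p = 8.08e-14). At 4 and 15 min the change of BIRC3 was 2.495 and 2.43. In both genes every spun library lay far above every control library.

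NFKBIA stood at 27.8, 28.7, 28.7 and 28.9 CPM in Ctrl300 and at 15.1, 15.6, 17.0 and 18.3 in wait1min, a change of -0.80 ± 0.06 (adjusted p = 9.61e-10). The changes of NFKBIB and NFKBIE at 1 min were -0.86 ± 0.05 and -0.88 ± 0.06. Among the subunits they were -0.50 ± 0.04 for NFKB1, -0.82 ± 0.05 for NFKB2, -0.86 ± 0.04 for RELA and -0.99 ± 0.11 for RELB. TNFAIP3 moved least, from 90.6, 94.5, 94.5 and 97.5 CPM to 77.7, 81.5, 82.5 and 86.2, a change of -0.21 ± 0.04 (adjusted p = 0.000104). The control and spun libraries of these 8 genes did not overlap, and the share of all genes without overlap is not given here.

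The 2 members that were higher and 8 that were lower at each waiting time stand beside a transcriptome that was mostly called. At 1 min 41.4% of all tested genes were higher and 40.1% lower, at 4 min 41.7% and 40.6%, and at 15 min 41.8% and 40.5%. REL (38.7% GC) and BIRC3 (34.8%) have the lowest GC content of the 10 genes, the others lying between 49.5% and 65.4%. With the GC correction REL was higher by 1.43, 1.47 and 1.49 and BIRC3 by 1.02, 1.02 and 0.94 at the 3 times. By that fit NFKBIA was lower by -0.31, -0.35 and -0.37 (adjusted p of at most 2.55e-05), RELA by -0.22, -0.17 and -0.19 and NFKB1 by -0.16, -0.11 and -0.13. NFKBIE was lower by -0.15, -0.19 and -0.18. NFKBIB stood at -0.14, -0.07 and -0.12, and its call was lost at 4 min (adjusted p = 0.0898). NFKB2 and RELB were not past the threshold at any time, and TNFAIP3 was higher by 0.09, 0.12 and 0.13. That fit called 3 members higher and 5, 4 and 5 lower, where 44.0%, 45.4% and 44.9% of all genes were higher and 28.2%, 29.3% and 29.3% lower.

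The level to which a library is scaled also mattered after 300 g. Scaling by total counts put the median log2 fold change of all tested genes at 0.25 to 0.27, and the TPM scale put it at 0.66 to 0.75, against 0.01 with TMM. On the TPM scale REL was higher by 3.19 to 3.29 and BIRC3 by 3.16 to 3.22. NFKB1 (0.16 to 0.29) and TNFAIP3 (0.44 to 0.57) were then above 0 but below the median gene. RELA, NFKB2, NFKBIA, NFKBIB and NFKBIE ran from -0.22 to -0.01 on that scale. With total counts TNFAIP3 stood at 0.03, 0.08 and 0.10, above 0 and below the median gene at each time. It was called higher there at 4 and 15 min (adjusted p = 0.0231 and 0.0119). With the GC correction, where the median gene stood at 0.13, 0.13 and 0.12, TNFAIP3 lay below it at 1 and 4 min and above it at 15 min. REL and BIRC3 were higher on every scale. TNFAIP3, NFKB1 and RELB changed sign on some scales, and relative to the median gene of the TPM scale they kept the direction of the TMM-scaled fit. T cell markers summed to 3695 to 3901 CPM in the spun libraries and to 4616 to 4651 in Ctrl300, and the part of this shift in the results was not tested. In RNA from a whole culture, less RNA per cell and fewer expressing cells cannot be told apart.

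**Figure D4:**
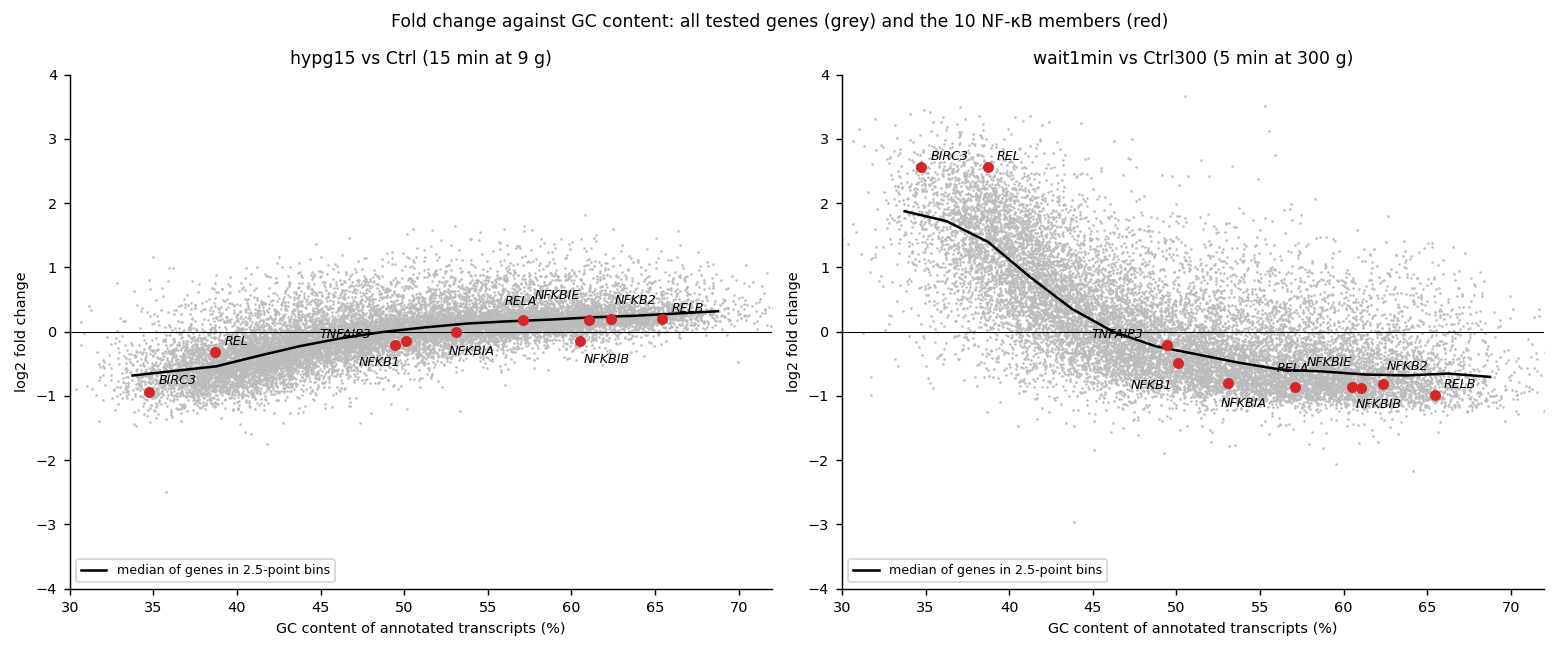
Log2 fold change (y axis) of genes tested in both comparisons against the GC content of their annotated transcripts (x axis), for 15 min at 9 g (left) and for 300 g with a 1 min wait (right). Grey points are genes, the black line is the median in bins of GC content and red points are the 10 NF-κB genes. BIRC3 and REL lie at the low-GC end, where the median gene is lower at 9 g and higher after 300 g.

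**Figure D5:**
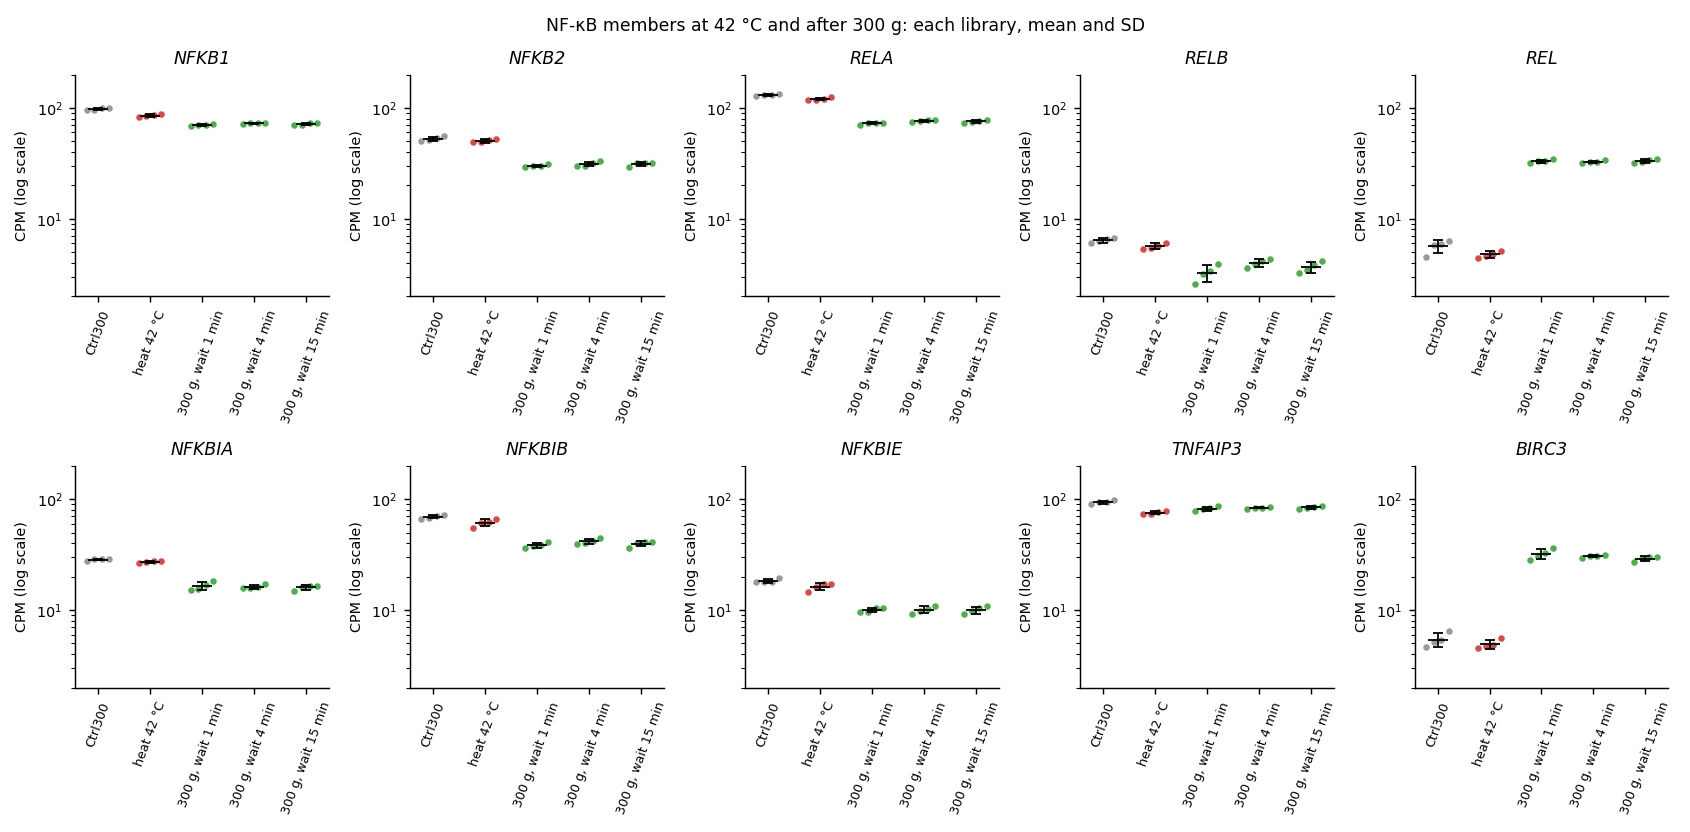
CPM (log scale, y axis) of the 10 genes in each of the 4 libraries per group (x axis) of the second experiment, scaled over its 20 libraries, with mean and SD. Grey is the uncentrifuged control, red 42 °C and green 300 g. REL lies between 4.55 and 6.34 CPM in the control and between 31.98 and 34.85 CPM after 300 g at all 3 waiting times.

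No member was called between 15 min and 1 min of waiting. At an unadjusted p under 0.05 there was 1 by edgeR and 0 by DESeq2, and 0.149% of all genes were called. The groups did not overlap for RELA, with 73.63 to 78.09 CPM at 15 min and 70.36 to 73.62 at 1 min (0.07 ± 0.03, adjusted p = 0.427), and overlapped for the other 9. Here too the share of all genes without overlap is not given. The difference was 0.18 ± 0.13 for RELB (adjusted p = 0.59) and -0.14 ± 0.06 for BIRC3 (adjusted p = 0.381).

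After heat at 42 °C for 5 min TNFAIP3 and NFKB1 were lower, and they were the members called. TNFAIP3 libraries held 69.0 to 74.5 CPM (median 70.8) against 82.2 to 87.4 in Ctrl300 (median 84.7), scaled over these 8 libraries alone, and the change was -0.25 ± 0.04 (adjusted p = 0.00014). NFKB1 libraries held 79.3 to 81.8 CPM (median 80.4) against 86.5 to 90.1 (median 88.1), a change of -0.13 ± 0.03 (adjusted p = 0.00678). Neither pair of groups overlapped, and the GC-corrected changes were -0.25 and -0.14. Of all tested genes 10.2% were lower and 10.6% higher after heat. NFKBIA (0.01 ± 0.05), BIRC3 (-0.07 ± 0.11) and REL (-0.17 ± 0.11) did not pass the threshold. GC correction added RELA (-0.08, adjusted p = 0.0321) and NFKBIB (-0.15, adjusted p = 0.00569) to the lower members, where 13.1% of all genes were lower and 11.8% higher by that fit. A single model over all groups of the experiment called 6 members, all lower, with RELA, REL, NFKBIB and NFKBIE added. That model called 21.6% of all genes lower and 7.85% higher, with a median log2 fold change of -0.06. NFKBIB was also called without library 67 of heat (-0.14, adjusted p = 0.0285). TNFAIP3 was thus lower after heat and in all groups at 9 g, in experiments with separate controls.

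Set against each other, heat and wait1min differed in all 10 members. REL and BIRC3 were lower after heat, by -2.82 ± 0.07 and -2.73 ± 0.09, and TNFAIP3 by -0.13 ± 0.04 (adjusted p = 0.00716), while the other 7 were higher by 0.27 to 0.79. The call of TNFAIP3 was lost with no filter (-0.09, adjusted p = 0.149). Of all genes 39.1% were higher and 42.0% lower. By the GC-corrected fit 4 of the 10 were called, namely REL (-1.64), BIRC3 (-1.13) and TNFAIP3 (-0.43) lower and NFKBIA (0.21) higher, where 48.6% of all genes were lower and 23.0% higher.

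The change after 5 min at 300 g was tested directly against the change after 5 min at 9 g. It was higher for REL (2.701 ± 0.301) and BIRC3 (2.81 ± 0.27) and lower for NFKB1 (-0.37 ± 0.06), NFKB2 (-0.84 ± 0.09), RELA (-0.81 ± 0.08), RELB (-1.18 ± 0.13), NFKBIA (-0.66 ± 0.09), NFKBIB (-0.81 ± 0.09) and NFKBIE (-1.08 ± 0.12). Of all genes 33.8% were higher and 34.6% lower in this test. With library 75 included the call of NFKB1 was lost (-0.47 ± 0.46, adjusted p = 0.389). For TNFAIP3 the difference was -0.00 ± 0.06 (adjusted p = 0.962), and with total counts it was called higher (0.19 ± 0.08, adjusted p = 0.0366). With the GC correction the differences of NFKB1, NFKB2 and NFKBIB fell to between -0.04 and -0.03 and were no longer called, and that of TNFAIP3 became 0.30 ± 0.07 (adjusted p = 0.000141). That fit called 3 members higher and 4 lower, where 34.5% of all genes were higher and 19.3% lower. Acceleration, vessel, density and centrifuge changed together between the experiments and cannot be told apart.

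The kinases, adaptors and ligases upstream of NF-κB, a list of 21 genes, all passed the filter. At 9 g between 1 and 5 were higher and between 0 and 12 lower, with the most at 15 min (5 higher and 12 lower, where 25.4% and 27.9% of all genes were called). At 3 min it was 4 and 8 (16.9% and 24.4% of all genes) and at 60 min 3 and 0 (17.1% and 13.0%). Corrected for GC, 0 were higher and 11 lower at 15 min (13.2% and 29.8% of all genes), 0 and 8 at 3 min (6.15% and 26.9%) and 3 and 5 at 60 min (17.3% and 24.1%). BIRC2, the paralogue of BIRC3 that encodes cIAP1, fell in 4 comparisons, with a mean of -0.51 over these and of -0.30 over all 8, from 11.1 CPM ± 1.16 (SD, n = 6) in Ctrl. Its GC-corrected mean over the 8 was -0.07, with 4 calls lower. RNF31, the catalytic subunit of the linear ubiquitin ligase complex, rose in 4 by 0.49 on average (0.40 over all 8) from 1.67 ± 0.275 CPM, with 1 call left after GC correction. After 300 g between 10 and 11 of the 21 were higher and 9 lower by the TMM-scaled fit, where 41.4% to 41.8% of all genes were higher and 40.1% to 40.6% lower. Corrected for GC, 12 or 13 were higher and 5 or 6 lower, where 44.0% to 45.4% of all genes were higher and 28.2% to 29.3% lower. BIRC2 (1.99 on average) and TAB3, an adaptor of the kinase TAK1 (1.90), led the list, with GC-corrected means of 0.80 and 0.85. After heat 2 were higher and 4 lower (10.6% and 10.2% of all genes), and 2 and 5 with the GC correction (11.8% and 13.1%), with RNF31 at 0.93 ± 0.15 and TAB2, another TAK1 adaptor, at -0.41 ± 0.06. BIRC2, TAB3 and TAB2 have GC contents of 38.0%, 39.1% and 39.8%, near those of REL and BIRC3.

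Of 11 other inhibitors and deubiquitinases, between 0 and 2 were higher and between 0 and 5 lower at 9 g, where 4.33% to 25.4% of all genes were higher and 1.69% to 27.9% lower. Corrected for GC, between 0 and 4 were higher and between 1 and 6 lower, where 4.02% to 17.3% and 10.2% to 29.8% of all genes were called. TAX1BP1, an adaptor of A20, fell in 6 comparisons by -0.76 on average (-0.67 over all 8) from 18.2 ± 3.50 CPM in Ctrl, and most at 15 min, by -1.27 ± 0.14. NFKBID, a nuclear IκB protein, rose in 7 by 0.39 on average (0.36 over all 8) from 9.12 ± 0.360 CPM, and in 4 with the GC correction. After 300 g 6 or 7 were higher and 3 or 4 lower (41.4% to 41.8% and 40.1% to 40.6% of all genes), led by TAX1BP1 (2.01 on average) and the deubiquitinase CYLD (1.00). Corrected for GC, 4 were higher and 3 or 4 lower (44.0% to 45.4% and 28.2% to 29.3% of all genes), TAX1BP1 stood at 2.22 and CYLD at 0.04 with no call. After heat NFKBID stood at 0.17 ± 0.07 (adjusted p = 0.096) and no gene of this list was past the threshold, where 10.6% of all genes were higher and 10.2% lower.

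Of 20 known target genes, 19 were found in the table and 11 passed the filter in the comparisons with a control. At 9 g 3 of the 11 were higher and 0 lower at 20 s (6.66% and 8.58% of all genes), 3 and 1 at 75 s (16.8% and 14.4%), and 4 and 1 at 3 min (16.9% and 24.4%). It was 2 and 2 at 15 min (25.4% and 27.9%) and 3 and 1 at 60 min (17.1% and 13.0%). None was called at 5, 7 or 9 min, where 4.33% to 11.3% of all genes were higher and 1.69% to 8.34% lower. Corrected for GC, 1 was higher and 5 lower at 15 min (13.2% and 29.8% of all genes), 0 and 4 at 60 min (17.3% and 24.1%) and 0 and 3 at 9 min (12.2% and 16.0%). By that fit it was 1 and 0 at 7 min (8.58% and 13.0%) and none at 5 min (5.01% and 10.5%). In the 3 shortest exposures it was 2 and 1 at 20 s (4.02% and 10.2%), 3 and 0 at 75 s (9.29% and 16.4%) and 2 and 1 at 3 min (6.15% and 26.9%). CD69, an early activation antigen, fell in 4 comparisons at 9 g, with a mean of -0.90 over these and of -0.58 over all 8, from 2.58 ± 0.737 CPM. The transcription factor gene IRF1 rose in 5 by 0.23 on average (0.18 over all 8) from 156.8 ± 5.68 CPM. The GC-corrected means over the 8 were -0.32 for CD69, called lower in 3, and 0.09 for IRF1, called higher in 4. After 300 g 2 of the 11 were higher and 8 lower at each time, where 41.4% to 41.8% of all genes were higher and 40.1% to 40.6% lower. CD69 was higher by 1.11 on average and IER3, an early response gene, lower by -0.93. Corrected for GC, 1 or 2 were higher and 5 or 6 lower, where 44.0% to 45.4% of all genes were higher and 28.2% to 29.3% lower. By that fit IER3 stood at -0.27, and CD69 turned to -0.23, called lower at 2 of the 3 times. After heat GADD45B, a stress response gene, was higher by 0.50 ± 0.06 and IRF1 lower by -0.23 ± 0.03. The median log2 fold change of the target list after 300 g was -0.69 to -0.59, with 0.01 over all genes, and -0.21 to -0.11 with the GC correction, with 0.12 to 0.13 over all genes.

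The genes whose levels went most nearly in step with NFKBIA and TNFAIP3 over libraries were found by Pearson correlation of log2 CPM. Over the 59 libraries of the 9 g experiment and 15638 genes, those nearest to TNFAIP3 were KLF6 (r = 0.845), HNRNPF (0.809) and XPC (0.796). Those nearest to NFKBIA were ATRAID (0.8), CCND3 (0.764) and PGAM5 (0.761). In the second experiment, over 20 libraries and 16114 genes, they were PDPK1 (0.959), RNF144A (0.921) and LCP2 (0.92) for TNFAIP3, and RPS6KA1, RCC1 and WDR54 (each 0.992) for NFKBIA. The libraries come from groups that differ in level and share depth and base composition, and the correlations are descriptions.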

How the data were processed

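RNA of 80 libraries of Jurkat cells was depleted of ribosomal RNA and sequenced in pairs with strand information. Per the labels, the authors trimmed reads with Trim Galore 0.6.5, aligned them with STAR 2.7.3a and counted them with featureCounts 2.0.1, while the file header names version 2.0.3, strand-specific counting of read pairs and the Ensembl 104 annotation of GRCh38. The deposited values are raw counts per gene, beside a column of exon lengths. The ANK2 record, broken over several lines, was left out. The count columns of Ctrl60, wait1min and wait4min are named Ctrl_plus_HEPES, instant and 1min, and the sample titles were followed.

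CPM, TPM and log2 fold changes were computed here. Each comparison was a 2-group model over all genes in edgeR 4.0.16 (R 4.3.3) with TMM factors, edgeR's filter on low counts (minimum count 10), the quasi-likelihood F test and Benjamini-Hochberg adjustment over all tested genes. A call is an adjusted p under 0.05, and a standard error is the log2 fold change divided by the root of F. The difference between 300 g and 9 g was a contrast in 1 model of 79 libraries. Alternatives were RLE factors, total counts, no filter, DESeq2 1.42.0, a lowess GC correction (span 0.3, prior count 2), all groups in 1 model, library 75 included and, for hypg15, the second experiment and the wait1min and Ctrl300 libraries of the difference, each library left out in turn. No 2 replicates agreed within sampling noise. The fits were tested on simulated data. There edgeR recovered 58% of genes with a log2 change of 0.5 for hypg5 against Ctrl and 68% for heat against Ctrl300. For a log2 change of 1 it recovered 88% and 90%, and smaller changes than 0.5 were not simulated. Named list genes were, for each list, the 2 whose mean change was largest, out of the genes with a call in at least 4 comparisons at 9 g, at all 3 waiting times, or after heat. GC-corrected values of list genes and means over all 8 comparisons at 9 g were added after the data were seen. The members and lists were chosen with earlier results of these data known.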

Additional observations from a re-analysis of the deposited data

Results flagged for a closer look

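In 9 of 150 groups of 4 to 6 values a single library stood apart from the others by Dixon's criterion, and chance gives about 1 in 20. NFKB1 was at 64.17 CPM in library 21 of hypg075s, with the others at 69.81 to 73.07. In Ctrl60, library 9 was low for both NFKB2 (44.76 CPM, others 50.56 to 51.53) and RELA (109.9 CPM, others 121.5 to 128.1). NFKB2 was at 29.32 CPM in library 64 of wait15min (others 31.76 to 32.02). RELB was high in library 74 of hypg3 (9.639 CPM, others 7.552 to 8.027) and in library 36 of hypg7 (8.103 CPM, others 6.318 to 6.897). REL was at 5.932 CPM in library 77 of hypg15 (others 3.717 to 4.23), NFKBIE at 19.55 CPM in library 52 of Ctrl300 (others 17.75 to 18.01) and BIRC3 at 7.993 CPM in library 44 of hypg60 (others 2.87 to 4.445).

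The change after 300 g differed from the change after 5 min at 9 g in 9 of the 10 genes, by the contrast in edgeR, where 33.8% of all genes were higher and 34.6% lower. By the GC-corrected fit 7 were called, without NFKB1, NFKB2 and NFKBIB (adjusted p = 0.7, 0.586 and 0.754) and with TNFAIP3. In the fit without that correction the difference was 2.7013 for REL (adjusted p = 2.25e-12) and 2.8118 for BIRC3 (adjusted p = 9.8e-15). It was -0.373 for NFKB1 (adjusted p = 2.39e-08), -0.8369 for NFKB2 (4.5e-13), -0.8069 for RELA (3.33e-13) and -1.1751 for RELB (4.27e-12). For the inhibitors it was -0.6625 for NFKBIA (9.32e-10), -0.8053 for NFKBIB (9.86e-13) and -1.0773 for NFKBIE (2.73e-12). The experiments differ in vessel, density and centrifuge as well.

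NFKBIB had changes of opposite sign at 20 s and 60 min in the TMM-scaled fit. Every library at 20 s lay above the mean of Ctrl (0.12) and every library at 60 min below the mean of Ctrl60 (-0.2259), and the difference between these changes was not tested. Corrected for GC, both were below 0, at -0.0057 and -0.351, and the call at 20 s was also lost with no filter (adjusted p = 0.124) and with all groups in 1 model (adjusted p = 0.137).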

How the results depend on the processing

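Of the changes of single genes under the tested alternatives, 1474 kept their direction and side of the threshold, 65 lost a call, 28 gained one, 24 reversed and 49 changed sign without a call on either side. On the TPM scale, which has no test, 17 of 150 changed sign, 11 of them called in the TMM-scaled fit. No paired analysis was possible because the replicate numbers are library numbers and no 2 groups share one. With the GC correction the number of the 10 genes called moved from 6 to 3 at 20 s, 1 to 4 at 5 min, 2 to 4 at 7 min, 3 to 5 at 9 min and 60 min, 2 to 4 after heat and 10 to 4 between heat and wait1min. Over all genes the calls moved from 2458 to 2287 at 20 s, 981 to 2522 at 5 min and 2108 to 3547 at 7 min. They moved from 3215 to 4611 at 9 min, 4916 to 6760 at 60 min, 3461 to 4145 after heat and 14190 to 12512 between heat and wait1min. All groups in 1 model gave 3 at 20 s (1327 of 17941 genes called) and 6 after heat (5488 of 18621). Total counts gave 2 at 5 min (1389 of 16284 genes called) and 0 at 7 min (2556 of 16438). No filter gave 0, 1 and 1 at 5, 7 and 9 min (565 of 33970, 1537 of 34104 and 2753 of 33980 genes). The TMM-scaled fit called 981 of 16284, 2108 of 16438 and 3215 of 16385 genes at these times. At 15 min, 7 became 3 with library 75 included, where calls over all genes fell from 8477 of 15875 to 5106 of 15736. The 7 became 4 to 6 on leaving out a library, 4 without library 1 or 3 of Ctrl. Shares of all genes called on leaving out a library are not given here. Leaving out a library gave 2 to 3 after heat, 10 to 10 in the other comparisons of the second experiment with a control or with wait1min, except 0 to 0 between wait15min and wait1min, and 9 to 9 for the difference of experiments.

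With the GC correction NFKBIB reversed at 20 s (-0.0057) and 75 s (-0.1068), RELA at 75 s (-0.0682), 3 min (-0.0578) and 15 min (-0.0712), NFKB2 at 3 min (-0.1069) and 15 min (-0.1202) and NFKBIE at 3 min (-0.0048) and 15 min (-0.133). After 300 g it reversed RELB at 4 min (0.0208) and TNFAIP3 at 1, 4 and 15 min (0.0915, 0.1163 and 0.1321). Between heat and wait1min it reversed NFKB1 (-0.0711), NFKB2 (-0.0511), RELB (-0.0175), NFKBIB (-0.0944) and NFKBIE (-0.0745), and in the difference of experiments TNFAIP3 (0.3021). Total counts reversed TNFAIP3 after 300 g (0.0346, 0.0809 and 0.0982) and in the difference of experiments (0.1861). Library 75 reversed NFKBIE at 15 min (-0.0897). The TPM scale, chosen after seeing the data, reversed NFKB2 (-0.0035), RELA (-0.014) and NFKBIE (-0.0313) at 15 min, NFKB1 (0.1595, 0.2934 and 0.2793) and TNFAIP3 (0.4441, 0.5495 and 0.5727) at the 3 waiting times, RELB at 4 min (0.0542) and NFKB1 between heat and wait1min (-0.243). That scale shifts all genes (median -0.1833 at 15 min, 0.66 to 0.7488 after 300 g and -0.5341 between heat and wait1min), and relative to the median gene all 11 kept the direction of the TMM-scaled fit. With the GC correction the median gene also left 0. Between heat and wait1min it stood at -0.1919, and the genes reversed there lay above it. RELB at 4 min lay below 0.1258, NFKBIB at 20 s above -0.0406, and RELA and NFKBIE at 3 min above -0.0694. These kept the TMM-scaled direction relative to it. NFKBIB and RELA at 75 s (median -0.0222), NFKB2 at 3 min, and NFKB2, NFKBIE and, just, RELA at 15 min (-0.0701) lay below it. The cause of the reversals outside the TPM scale was not tested. Precision was limited for REL, with standard errors of 0.18 to 0.24 at 9 g.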

Other observations

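REL and BIRC3 varied together between libraries of the same group at 9 g, a relation noticed after the values were seen and given as a description, with no test. Over 59 libraries, with each group's mean removed, Pearson's r was 0.724 and Spearman's rho 0.722. Without the 2 libraries farthest from the median of REL, r was 0.699. The median of 2178 genes under 40% GC followed the same libraries, with r of 0.866 and rho of 0.852 for REL (0.859 without 2 libraries) and r of 0.872 and rho of 0.851 for BIRC3 (0.836). REL and BIRC3 are themselves of low GC content, so the part of base composition in their relation cannot be told apart from one particular to these genes.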
